A study of Mus musculus with 12 samples.

Results

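The 40 genes described here drive the copying of DNA and the division of the cell. They form a named list of cell cycle genes, drawn up with earlier results of these data known but by a rule that uses no value, and all 40 were found among the 47643 gene IDs of the tables. The list falls into an S phase set of 18 genes, for cyclin E, origin licensing, the replication fork and deoxynucleotide supply, and a mitosis set of 22 genes, for the mitotic kinases, the spindle, the checkpoint and chromosome condensation. Poly(A) RNA was sequenced from skin of 10-week-old C57BL/6 mice. The wild type (WT) mice were compared with ADAM17 cKO mice, here called KO, which carry Sox9-Cre together with the ADAM17fl/fl alleles. Adam17 encodes a membrane metalloprotease that sheds EGFR ligands, TNF and other surface proteins. Each genotype was measured in whole skin and in epidermis, in 3 libraries per group and 12 in all. The labels do not say whether the WT mice carried Cre or floxed alleles.

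Sox9 marks cells of the hair follicle, so Cre is driven in that lineage and its descendants and not in every cell of the skin. Adam17 itself stood at 72.4 to 96.4 CPM in WT skin and 41.7 to 52.6 CPM in KO skin, and at 79.0 to 86.5 CPM in WT and 47.4 to 58.2 CPM in KO epidermis. Which exons were floxed is not stated, so reads from the rest of the gene may remain in these values. Libraries held 12208522 to 16743144 expected counts, and 3 counts correspond to 0.179 to 0.246 CPM, the count scaled to library size. Every one of the 40 genes had at least 20 counts in every library. Whether each library stands for its own mouse is not said in the labels, so p-values measure only the spread between these libraries, which may be technical. Reads of Y-linked genes were 0 in the 6 WT libraries and in Skin KO 2, and numbered 1728 and 1034 in Skin KO 1 and 3 and 1781, 213 and 679 in Epidermis KO 1 to 3. In epidermis the sex of the mice and the genotype cannot be told apart. WT epidermis held little dermis, with 8 fibroblast markers summing to 5.96 to 10.8 CPM against 2085 to 2831 CPM in WT skin.

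A cell enters S phase when cyclin D and cyclin E kinases release E2F factors from retinoblastoma proteins. E2F then switches on the licensing and fork genes. The mitotic genes come on later, when B-Myb and FoxM1 bind with the MuvB complex at promoter elements called CHR, the cell cycle genes homology region. In skin such cells lie mostly in the basal layer of the epidermis and in the matrix of growing hair follicles. Transcript levels of these genes are commonly read as a measure of how many cells are dividing. In bulk samples fewer cells of a type and less RNA per cell cannot be told apart.

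Promoter windows from RefSeq (assembly GRCm38.p6, 250 bases before to 50 after the start of a gene, 300 in all) were at hand for 32 of the 40 genes, 15 of the S phase and 17 of the mitosis set. They were searched on both strands for the CHR (TTTGAA or TTTAAA), an E2F site (TTTGGCGC, TTTCCCGC, TTTGCCGC or TTTCGCGC) and the CCAAT box (CCAAT). The CHR letters stood in 15 of 17 mitosis genes (88.2%), in 6 of 15 S phase genes (40%) and in 30.6% of all 27025 genes with a window. The E2F letters stood in 7 of 15 S phase genes (46.7%), in 1 of 17 mitosis genes (5.88%, Cdk1) and in 2.6% of all genes. CCAAT stood in 10 of 15 (66.7%), 15 of 17 (88.2%) and 41.1%, in the same order. These matches are descriptions of letters and not of bound sites. The windows of E2f1, Tyms and Mad2l1 held none of the 3 motifs.

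Windows of 3 mitosis genes (Plk1, Ccnb1 and Cdk1) and 4 S phase genes (Mcm6, Mcm2, Cdc6 and E2f1) are printed because they show the motifs by which the sets differ and 1 window that has none. They are written 5′ to 3′ along the gene's strand, with CHR, E2F and CCAAT matches in capitals (CCAAT on the other strand reads ATTGG). Plk1 (chr7:122159185-122159484, plus strand) held 3 CHR matches and 1 CCAAT box. Ccnb1 (chr13:100786437-100786736, minus strand) held 1 CHR match and 2 CCAAT boxes. Cdk1 (chr10:69352863-69353162, minus strand) held 2 CHR matches, 3 CCAAT boxes and the E2F match of the mitosis set. Mcm6 (chr1:128359656-128359955, minus strand) held 3 E2F matches, of which 2 overlap, 2 CCAAT boxes and no CHR match. Mcm2 (chr6:88898731-88899030, minus strand) held 1 CHR match and 1 CCAAT box, Cdc6 (chr11:98907901-98908200, plus strand) 1 E2F match, and E2f1 (chr2:154569377-154569676, minus strand) no match. The windows of E2f1 and Cdc6 lie wholly inside the longer genes of GENCODE M21 (chr2:154559407-154569892 and chr11:98907801-98923940), so the letters before those starts were not searched.
Plk1: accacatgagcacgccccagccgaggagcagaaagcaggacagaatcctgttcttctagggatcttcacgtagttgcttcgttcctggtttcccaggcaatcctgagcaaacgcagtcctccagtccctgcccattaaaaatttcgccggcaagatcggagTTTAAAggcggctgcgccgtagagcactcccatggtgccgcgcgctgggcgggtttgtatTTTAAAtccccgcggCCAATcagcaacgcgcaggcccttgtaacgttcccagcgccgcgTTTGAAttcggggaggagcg
Ccnb1: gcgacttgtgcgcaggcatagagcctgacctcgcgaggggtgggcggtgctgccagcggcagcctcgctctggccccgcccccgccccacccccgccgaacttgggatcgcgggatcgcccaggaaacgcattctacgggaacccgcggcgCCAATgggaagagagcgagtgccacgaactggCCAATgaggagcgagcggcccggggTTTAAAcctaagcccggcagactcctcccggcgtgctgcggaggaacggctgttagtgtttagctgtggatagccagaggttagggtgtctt
Cdk1: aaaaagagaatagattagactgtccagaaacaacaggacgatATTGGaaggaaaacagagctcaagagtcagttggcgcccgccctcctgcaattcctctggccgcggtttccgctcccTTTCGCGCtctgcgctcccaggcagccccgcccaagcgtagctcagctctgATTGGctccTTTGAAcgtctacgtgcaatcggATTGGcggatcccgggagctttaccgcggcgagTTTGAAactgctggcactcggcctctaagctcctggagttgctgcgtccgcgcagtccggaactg
Mcm6: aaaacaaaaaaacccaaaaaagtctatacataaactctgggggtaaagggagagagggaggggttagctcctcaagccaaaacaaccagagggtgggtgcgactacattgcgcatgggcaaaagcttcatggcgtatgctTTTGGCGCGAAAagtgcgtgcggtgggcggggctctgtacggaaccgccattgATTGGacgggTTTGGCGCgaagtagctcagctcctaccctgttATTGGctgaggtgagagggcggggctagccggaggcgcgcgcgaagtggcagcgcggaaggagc
Mcm2: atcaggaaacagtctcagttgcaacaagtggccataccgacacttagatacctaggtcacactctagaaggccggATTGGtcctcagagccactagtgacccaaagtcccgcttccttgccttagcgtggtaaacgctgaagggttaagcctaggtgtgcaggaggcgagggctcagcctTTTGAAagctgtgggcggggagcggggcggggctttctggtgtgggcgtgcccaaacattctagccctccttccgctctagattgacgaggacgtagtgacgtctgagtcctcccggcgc
Cdc6: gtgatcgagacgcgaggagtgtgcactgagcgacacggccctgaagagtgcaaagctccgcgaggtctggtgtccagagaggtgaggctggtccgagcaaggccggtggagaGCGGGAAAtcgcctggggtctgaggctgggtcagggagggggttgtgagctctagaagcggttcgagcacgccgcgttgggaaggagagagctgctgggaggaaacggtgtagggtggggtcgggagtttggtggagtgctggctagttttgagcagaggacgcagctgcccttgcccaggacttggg
E2f1: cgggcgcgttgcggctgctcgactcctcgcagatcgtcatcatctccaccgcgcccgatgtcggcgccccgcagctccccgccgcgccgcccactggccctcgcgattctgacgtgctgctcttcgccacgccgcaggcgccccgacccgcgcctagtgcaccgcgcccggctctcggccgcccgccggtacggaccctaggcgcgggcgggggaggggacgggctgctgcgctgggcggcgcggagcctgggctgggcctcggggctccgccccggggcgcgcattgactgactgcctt

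In whole skin nearly the whole programme was higher in the KO, with larger values for the mitotic than for the S phase genes. Of the 40 genes 36 were higher in KO than in WT skin at an adjusted p under 0.05, and 0 were lower, where 22.2% of the 14906 genes tested were higher and 23.3% lower. The S phase set gave 15 of 18 higher with a median log2 fold change of 0.96, and the mitosis set 21 of 22 with a median of 1.90, beside -0.0014 over all genes. The 3 KO libraries all lay above the 3 WT libraries for 35 of the genes and all below them for 1, Ttk, where 25.8% of all genes tested showed the first pattern and 32.2% the second. At an unadjusted p under 0.05 the count lower was also 0, and with DESeq2 it was 0.

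Summed over the set, the mitosis genes stood at 242, 252 and 246 CPM in Skin WT 1 to 3 and at 686, 1033 and 769.5 CPM in Skin KO 1 to 3. The S phase genes summed to 411, 498 and 446 CPM in WT and to 644, 925 and 716 CPM in KO skin. The KO mean was 3.36 times the WT mean for the mitosis set and 1.69 times for the S phase set. Skin KO 2 was the highest library of the 12 for both sums. The sum of the mitosis set divided by that of the S phase set was 0.506 to 0.590 in WT and 1.07 to 1.12 in KO skin, and these ranges did not overlap.

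**Figure D1:**
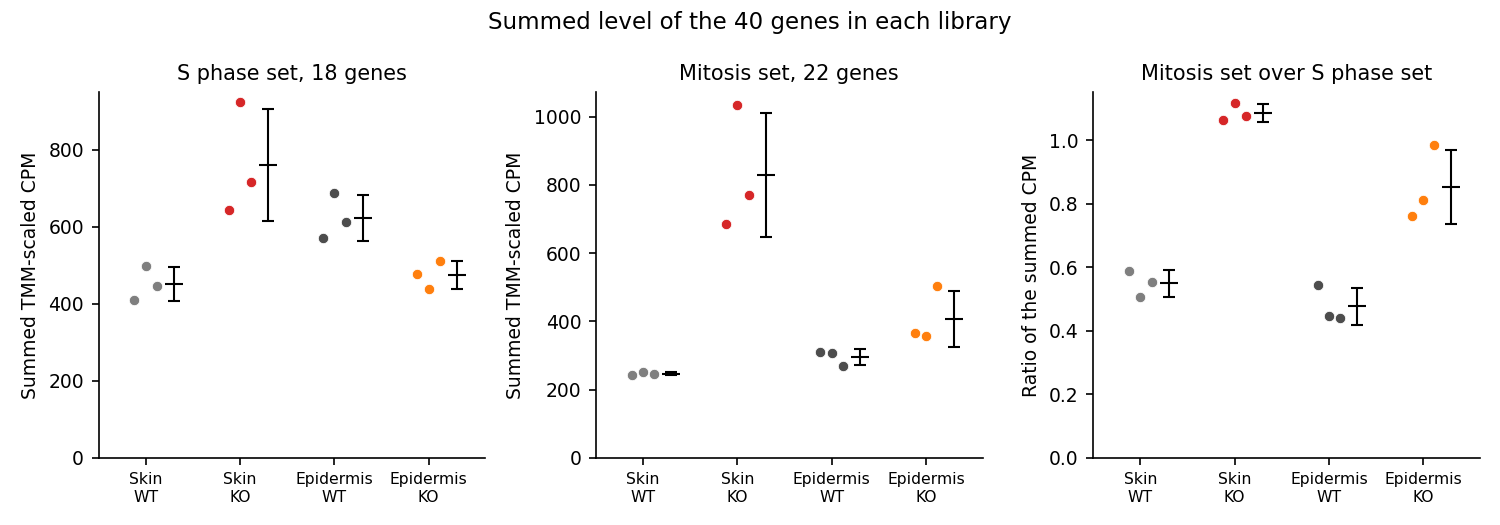
Summed TMM-scaled CPM of the S phase set (18 genes, left) and the mitosis set (22 genes, middle) and their ratio (right) in each of the 12 libraries; points are libraries, bars the mean and SD of 3. In skin the mitosis sum is 242 to 252 in WT and 686 to 1033 in KO, while in epidermis the S phase sum is lower in every KO library (438 to 511) than in every WT library (571 to 688).

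Ccne1, the cyclin E that starts S phase, had the largest change of the S phase set. It stood at 2.24, 2.82 and 1.70 CPM in WT and 8.24, 10.5 and 9.39 CPM in KO skin (log2 fold change 2.14, SE 0.25, adjusted p = 0.00087). Ccne2, the other cyclin E, stood at 3.78, 7.27 and 7.48 CPM in WT and 9.73, 8.58 and 8.13 CPM in KO skin. Its KO libraries were all above its WT libraries, but the difference did not pass the test (log2 fold change 0.60, SE 0.27, adjusted p = 0.11). E2f1, the activating factor of the programme, stood at 8.27, 10.2 and 8.33 CPM in WT and 8.81, 10.2 and 7.43 CPM in KO skin (log2 fold change 0.072, SE 0.19, adjusted p = 0.779). The E2f1 libraries of both genotypes overlapped. Ccne2 shares 609 exon bases with Ints8 on the opposite strand. The strand setting of the counting is not given in the sources used here, so reads of the overlap may be shared.

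The loading of the MCM helicase onto origins by Cdc6 and Cdt1 licenses a chromosome for replication. Both were called higher, Cdt1 from 7.22 to 8.73 CPM up to 11.7 to 17.1 CPM (log2 fold change 0.96, SE 0.19, adjusted p = 0.00634) and Cdc6 with overlapping libraries (log2 fold change 1.0, SE 0.33, adjusted p = 0.0413). All 6 subunits of the helicase, Mcm2 to Mcm7, rose. Mcm5 rose most, from 16.4, 24.9 and 21 CPM to 45, 68.4 and 44.3 CPM (log2 fold change 1.43, SE 0.23, adjusted p = 0.00309). Mcm2 stood at 19.3, 26.6 and 24.4 CPM in WT and 35.4, 52.8 and 38.7 CPM in KO skin. Mcm3 stood at 21.2, 26 and 22.3 CPM in WT and 35.8, 58.9 and 44.9 CPM in KO skin. Mcm4 stood at 21.9, 31.3 and 33.3 CPM in WT and 45.1, 66.4 and 50.4 CPM in KO skin. In these 3 genes and in Mcm7 the KO libraries lay clear of the WT libraries. Mcm7 stood at 32.1, 36.5 and 33.7 CPM in WT and 49.8, 76.1 and 60.0 CPM in KO skin. The log2 fold changes of the 4 were 0.95, 1.10, 1.0 and 0.95 with SEs of 0.20, 0.20, 0.21 and 0.17. Mcm6 moved least, with Skin KO 1 below Skin WT 2. It stood at 50.4, 65.6 and 54.2 CPM in WT and 63.1, 100.3 and 76.3 CPM in KO skin (log2 fold change 0.59, SE 0.20, adjusted p = 0.0454).

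Without Skin KO 2 the calls of Cdc6 (log2 fold change 0.79, adjusted p = 0.14), Mcm6 (0.37, adjusted p = 0.153) and Cdc45 (0.69, adjusted p = 0.0607) ended. Those of Cdc6 and Mcm6 also ended without Skin WT 1 (adjusted p = 0.0848 and 0.0959), Skin WT 3 (0.117 and 0.129) or Skin KO 3 (0.103 and 0.0917), and that of Mcm6 without the filter on low counts (0.0507).

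Cdc45 and the GINS complex turn the loaded MCM ring into an active helicase, and Pcna is the sliding clamp of the polymerases. Cdc45 rose (log2 fold change 0.87, SE 0.22, adjusted p = 0.016), with every KO library above every WT library. Pcna stood at 82.2, 88 and 75.3 CPM in WT and 105, 139.9 and 115 CPM in KO skin (log2 fold change 0.64, SE 0.15, adjusted p = 0.0113). Gins2, a GINS subunit, stood at 38.7, 46.3 and 38.7 CPM in WT and 39.6, 39.9 and 39.9 CPM in KO skin (log2 fold change 0.039, SE 0.12, adjusted p = 0.814). The 3 KO libraries of Gins2 fell within the range of the WT libraries, beside the rise of its partners. Gins2 shares 2758 exon bases with Gse1 on the opposite strand and Cdc45 shares 209 with Ufd1, with the same limit as for Ccne2.

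Deoxynucleotides are made by ribonucleotide reductase, whose subunits are Rrm1 and Rrm2, and by thymidylate synthase, Tyms. All 3 genes rose in KO skin without overlap. Rrm2 stood at 17.9, 22.4 and 21.1 CPM in WT and 35.4, 53.8 and 41.7 CPM in KO skin (log2 fold change 1.19, SE 0.19, adjusted p = 0.0027). Rrm1 and Tyms rose by 0.95 and 1.15 on the log2 scale (SE 0.16 and 0.18). Uhrf1, which brings the maintenance DNA methyltransferase to newly copied DNA, rose by 1.10 (SE 0.21, adjusted p = 0.00615).

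In the mitosis set, cyclin B and Cdk1 form the kinase that drives entry into mitosis. Ccnb1 stood at 10.2, 10.6 and 11.2 CPM in WT and 37.8, 53.8 and 38.3 CPM in KO skin (log2 fold change 2.12, SE 0.18, adjusted p = 0.000318). Cdk1 stood at 13.7, 11.7 and 11.5 CPM in WT and 36.4, 62.3 and 43.6 CPM in KO skin (log2 fold change 2.04, SE 0.23, adjusted p = 0.000766). For both genes the lowest KO library was well above the highest WT library. Ccna2, the cyclin A of S phase and early mitosis, and Ccnb2 rose by 1.74 and 1.68 (SE 0.16 and 0.23). Ccna2 shares 510 exon bases with Exosc9 on the opposite strand.

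Plk1, the Polo kinase of centrosome maturation and spindle assembly, had the largest change of the 40 genes in skin. It stood at 4.69, 3.77 and 3.28 CPM in WT and 16.3, 30.7 and 18.9 CPM in KO skin (log2 fold change 2.58, SE 0.29, adjusted p = 0.000833). Skin KO 2 was the highest library at 30.7 CPM, and the lowest KO library still stood at 16.3 CPM. Aurora kinase A (Aurka) acts at the spindle poles, and Aurora kinase B (Aurkb) works with survivin (Birc5) in the chromosomal passenger complex. They rose by 1.53, 2.07 and 1.96 on the log2 scale (SE 0.25, 0.18 and 0.23), each without overlap.

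The spindle checkpoint holds anaphase until every kinetochore is attached. Of its 5 genes here 4 rose in KO skin. Bub1, a checkpoint kinase, stood at 2.73, 1.99 and 2.19 CPM in WT and 8.59, 11.5 and 9.39 CPM in KO skin (log2 fold change 2.19, SE 0.22, adjusted p = 0.000594). Bub1b and Mad2l1, which help form the inhibitor of the anaphase-promoting complex, rose by 1.89 and 1.73, and Cdc20, the activator of that complex, by 1.99 (SE 0.18, 0.18 and 0.22). Ttk, the kinase upstream of the checkpoint, stood at 15.4, 20.0 and 16.2 CPM in WT and 10.5, 13.8 and 12.4 CPM in KO skin, with every KO library below every WT library. The difference did not pass the test in the skin libraries (log2 fold change -0.40, SE 0.17, adjusted p = 0.0975), and in 1 fit of all 12 libraries it did (log2 fold change -0.49, adjusted p = 0.0382). Ttk (chr9:83834689-83872389, plus strand, GRCm38) was the 1 gene of the 40 with a negative value in skin.

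Kif11 (chr19:37376403-37421859, plus strand), the motor that pushes the spindle poles apart, stood at 9.39, 8.58 and 8.21 CPM in WT and 34.4, 48.4 and 39.9 CPM in KO skin (log2 fold change 2.32, SE 0.17, adjusted p = 0.000211). Its KO libraries ran from 34.4 to 48.4 CPM, far from the WT libraries. The other motors and spindle proteins rose too, namely Kif20a and Kif23 of the central spindle by 1.90 and 1.5, the kinetochore motor Cenpe and its partner Cenpf by 1.90 and 1.10, and Tpx2, the activator of Aurora A, by 1.77. Cenpf had the smallest rise of the mitosis genes that were called (SE 0.21, adjusted p = 0.00593). Kif20a shares 1271 exon bases with Cdc23 on the opposite strand, Mcm7 shares 321 with Ap4m1 and 64 with Cops6, and Cdc20 shares 53 with Elovl1. Of the chromosome proteins, Mki67, the coat protein of mitotic chromosomes that is widely stained to find dividing cells, stood at 29.6, 36.4 and 37.6 CPM in WT and 107, 156 and 119.7 CPM in KO skin (log2 fold change 1.98, SE 0.18, adjusted p = 0.000392). Top2a, the topoisomerase that untangles sister chromatids, stood at 33.8, 34.9 and 35.5 CPM in WT and 106, 175 and 132 CPM in KO skin (log2 fold change 2.08, SE 0.19, adjusted p = 0.000424). Both were lowest in Skin KO 1 and highest in Skin KO 2 among the KO libraries. Foxm1, the transcription factor of the mitotic genes, rose by 1.85 (SE 0.21).

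**Figure D2:**
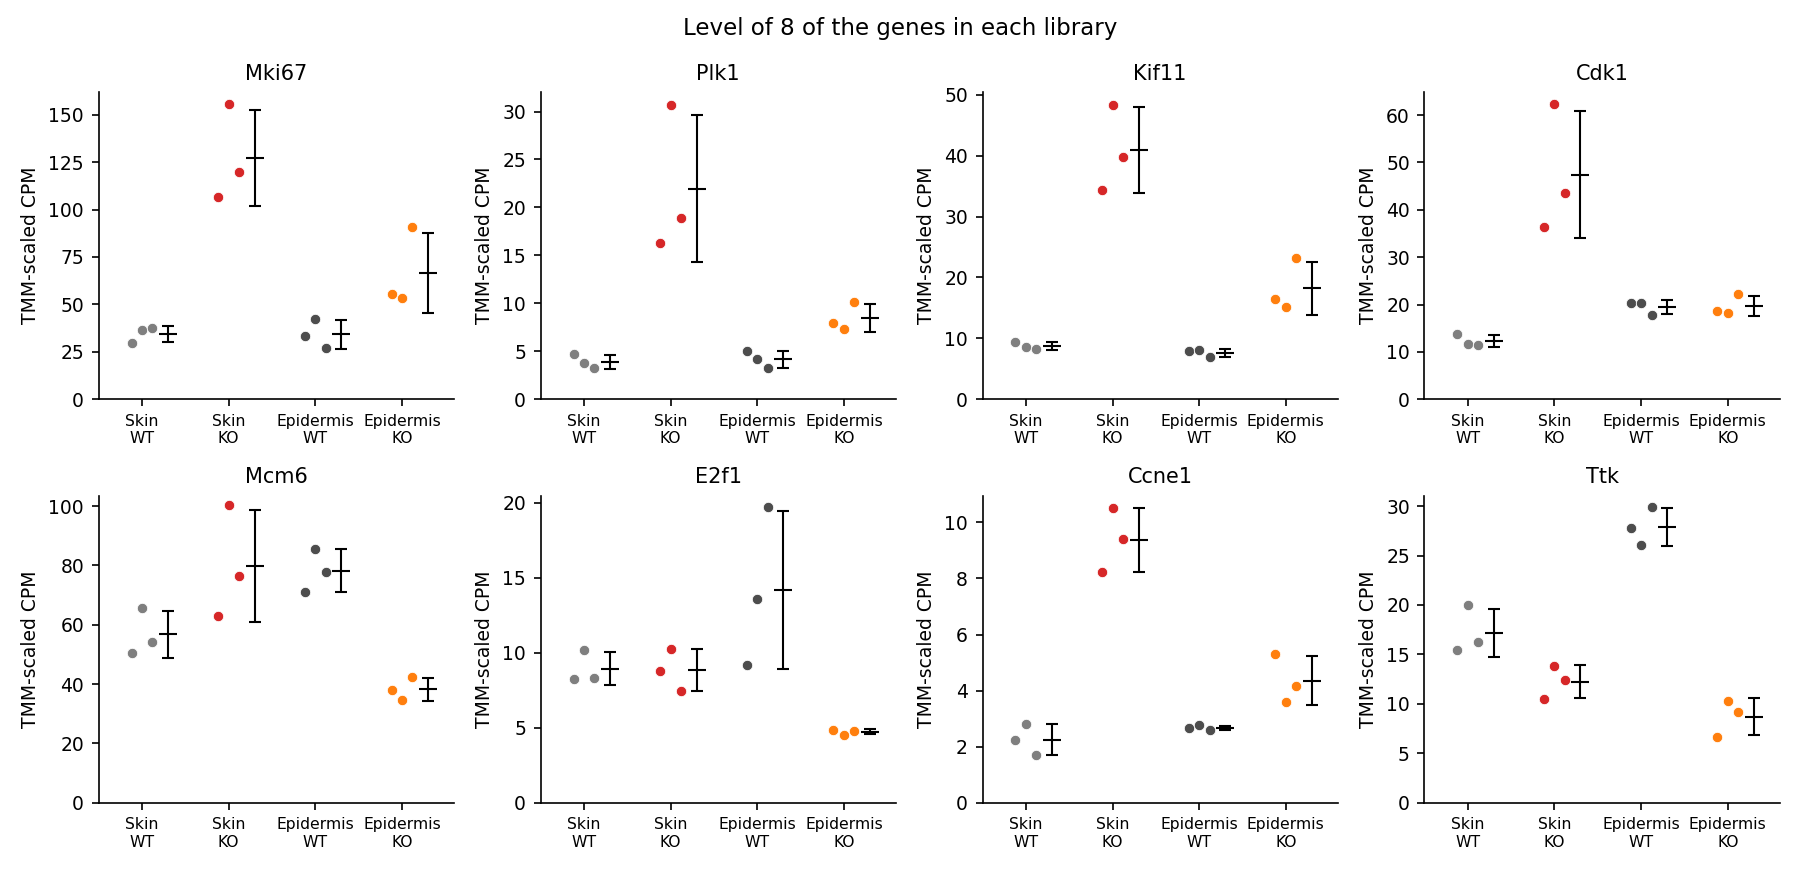
TMM-scaled CPM of 8 genes in each library (points), with the mean and SD of the 3 libraries of a group (bars), by tissue and genotype. Mki67, Plk1, Kif11 and Cdk1 are highest in KO skin; Mcm6, E2f1 and Ttk are lowest in KO epidermis, and Ttk is lower in KO than in WT libraries of both tissues.

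Markers of other cells moved with genotype in the same skin libraries, and their part in these results was not tested. All 8 endothelial and all 8 adipocyte markers fell in KO skin, with sums of 131 to 141 CPM in WT and 40.9 to 51.2 CPM in KO for endothelium and of 2461 to 3106 and 219 to 512 CPM for adipocytes. Of 8 skeletal muscle markers 7 fell (7293 to 60254 CPM in WT, 537 to 2661 CPM in KO), and of 8 fibroblast markers 5 fell. Basal keratinocyte markers summed to 16815 to 18539 CPM in WT and 17483 to 22122 CPM in KO skin, with 1 of 12 higher and 4 lower. Of their log2 fold changes 3 were above 0 and 9 below. Krt14 held the most reads of these markers in KO skin, 420729 over the KO libraries against 181458 over the WT libraries. Hair matrix markers summed to 118 to 145 and to 220.5 to 336 CPM, with 3 of 8 tested higher and 0 lower. Ovol1 held the most reads of that list, 3232 over the WT and 6288 over the KO skin libraries. Whether the sum follows dividing cells was not tested. Hair shaft markers summed to 5.91 to 709 CPM in WT and to 9469, 321 and 2595 CPM in Skin KO 1 to 3. Skin KO 1 was the lowest of the 3 for both sets of cell cycle genes, and Skin KO 2 the highest. Basal keratinocyte markers had the same order, at 17483, 22122 and 18849 CPM in Skin KO 1 to 3. So had suprabasal keratinocyte, T cell, neutrophil and melanocyte markers. Hair shaft, endothelial and adipocyte markers had the reverse order. Hair matrix markers had neither order, at 335.8, 229.9 and 220.5 CPM in Skin KO 1 to 3, and were thus highest in Skin KO 1. T cell markers summed to 44.8 to 55.1 and 64.3 to 99.9 CPM (5 of 10 tested higher), and neutrophil markers to 0.77 to 1.64 and 37.6 to 41.2 CPM. Over the 3 KO libraries the neutrophil markers Cxcr2, Csf3r, Retnlg and Ltf held 1255, 159, 121 and 107 reads. The others, Mmp8, Mpo, Ngp, Ly6g, Camp and Elane, held 29, 28, 7, 5, 2 and 1. Skin KO 2, the KO library free of Y-linked reads, was also kept as the single KO library. The median log2 fold change of the 40 genes was then 1.86, against 1.52 with all libraries. Skin KO 2 was the highest library for both sets, so a fit on it alone cannot decide whether sex plays a part. In that fit the lone library is assumed to vary like the WT libraries.

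In epidermis calls went both ways. Of the S phase genes 8 fell and 1 rose, and of the mitosis genes 10 rose and 1 fell, a contrast between the sets that was not itself tested. Of the 40 genes 11 were higher and 9 lower in KO than in WT epidermis, where 51.5% of the 13632 genes tested were called, 26.2% higher and 25.3% lower. The S phase gene that rose was Ccne1, and 14 of the 18 values of its set were below 0. The mitosis gene that fell was Ttk, and 19 of the 22 values of its set were above 0. Median log2 fold changes were -0.40 and 0.49, beside 0.0030 over all genes tested. The KO libraries all lay above the WT libraries for 11 genes and all below them for 11, where 30.4% and 31.6% of all genes tested showed these patterns. Counted over all 40 genes, the shares higher and lower were thus near those of the background.

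The S phase set summed to 571, 688 and 612 CPM in Epidermis WT 1 to 3 and to 479, 438 and 511 CPM in Epidermis KO 1 to 3, and the KO mean was 0.763 times the WT mean. The mitosis set summed to 311, 307 and 269 CPM in WT and 365, 356 and 503 CPM in KO, a KO mean 1.38 times the WT mean. Neither sum overlapped between genotypes. Epidermis KO 3 was the highest KO library for the mitosis set. The ratio of the mitosis to the S phase sum was 0.440 to 0.544 in WT and 0.763 to 0.985 in KO epidermis, and as in skin the KO libraries were all above the WT libraries.

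E2f1 had the largest change of the S phase set in epidermis. It stood at 9.19, 13.6 and 19.7 CPM in WT and 4.83, 4.55 and 4.81 CPM in KO epidermis (log2 fold change -1.56, SE 0.27, adjusted p = 0.00166). The WT libraries were widely spread, and the 3 KO libraries lay close together below each of them. Ccne1 was the 1 S phase gene that rose, at 2.65, 2.76 and 2.59 CPM in WT and 5.30, 3.59 and 4.17 CPM in KO epidermis (log2 fold change 0.72, SE 0.24, adjusted p = 0.0363). Ccne2 stood at 4.24, 3.93 and 5.53 CPM in WT and 2.45, 3.35 and 3.46 CPM in KO epidermis, lower in every KO library but not past the test (log2 fold change -0.54, SE 0.26, adjusted p = 0.107).

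Of the licensing genes, Cdt1 stood at 14, 17.1 and 14.2 CPM in WT and 7.91, 7.18 and 9.62 CPM in KO epidermis (log2 fold change -0.86, SE 0.17, adjusted p = 0.00355), without overlap. Cdc6 stood at 3.18, 4.0 and 3.11 CPM in WT and 2.21, 1.59 and 3.61 CPM in KO epidermis and did not pass the test (log2 fold change -0.45, SE 0.33, adjusted p = 0.279). Mcm6 fell most of the helicase, from 71.1, 85.6 and 77.9 CPM in WT to 37.9, 34.5 and 42.4 CPM in KO epidermis (log2 fold change -1.02, SE 0.12, adjusted p = 0.000275). The lowest WT library of Mcm6 was 71.1 CPM and the highest KO library 42.4 CPM. Mcm3 fell less, at 27.8, 36.3 and 31.6 CPM in WT and 22.6, 18 and 25.5 CPM in KO epidermis (log2 fold change -0.52, SE 0.16, adjusted p = 0.0257). The other 4 subunits did not pass the test. Mcm7 stood at 46, 44.7 and 53.2 CPM in WT and 35, 35.9 and 42.9 CPM in KO epidermis (log2 fold change -0.32, SE 0.13, adjusted p = 0.0591), without overlap. Mcm2 stood at 28.8, 35.4 and 27.1 CPM in WT and 24.8, 21.1 and 31.2 CPM in KO epidermis (log2 fold change -0.23, SE 0.17, adjusted p = 0.292). Mcm5 stood at 25.7, 38.4 and 30.6 CPM in WT and 26.5, 23.8 and 31.7 CPM in KO epidermis (log2 fold change -0.19, SE 0.17, adjusted p = 0.376). For Mcm2 and Mcm5 the libraries overlapped. Mcm4 stood at 25.9, 36 and 22.7 CPM in WT and 32.9, 27.9 and 33.1 CPM in KO epidermis, the 1 subunit with a value above 0 (log2 fold change 0.16, SE 0.18, adjusted p = 0.473). The 6 subunits of 1 ring thus ran from -1.02 to 0.16 on the log2 scale.

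Pcna stood at 125, 146 and 138 CPM in WT and 109, 97.2 and 104 CPM in KO epidermis (log2 fold change -0.39, SE 0.11, adjusted p = 0.018). Gins2 stood at 47.8, 56.6 and 48.7 CPM in WT and 36.4, 40.8 and 37.3 CPM in KO epidermis (log2 fold change -0.41, SE 0.12, adjusted p = 0.0172). Both fell, without overlap between the groups. Cdc45 stood at 8.13, 8.90 and 6.66 CPM in WT and 5.62, 4.95 and 7.92 CPM in KO epidermis, with overlapping libraries (log2 fold change -0.34, SE 0.23, adjusted p = 0.245). The nucleotide genes differed among themselves. Tyms fell, at 20.9, 24.6 and 26.4 CPM in WT and 16.5, 14.1 and 15.8 CPM in KO epidermis (log2 fold change -0.62, SE 0.14, adjusted p = 0.00609). Rrm1 stood at 63.1, 82.4 and 55.1 CPM in WT and 72.2, 60.1 and 67.5 CPM in KO epidermis (log2 fold change 0.0062, SE 0.16, adjusted p = 0.977). Rrm2 stood at 23.3, 24.1 and 23.8 CPM in WT and 23.1, 23.1 and 25.3 CPM in KO epidermis (log2 fold change 0.02, SE 0.12, adjusted p = 0.897). The reductase genes were among the 3 smallest differences of the 40 in epidermis. Uhrf1 fell, at 23.8, 27.9 and 24.6 CPM in WT and 14.1, 16.1 and 20.0 CPM in KO epidermis (log2 fold change -0.59, SE 0.16, adjusted p = 0.0144).

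In the mitosis set, Kif11 rose most in epidermis. It stood at 7.96, 8.07 and 6.92 CPM in WT and 16.5, 15.1 and 23.1 CPM in KO epidermis (log2 fold change 1.27, SE 0.20, adjusted p = 0.000959). Plk1 stood at 5.04, 4.21 and 3.29 CPM in WT and 7.99, 7.34 and 10.1 CPM in KO epidermis (log2 fold change 1.03, SE 0.23, adjusted p = 0.00604). These were also the 2 largest rises of the mitosis set in skin. Mki67 stood at 33.6, 42.2 and 26.9 CPM in WT and 55.3, 53.6 and 90.7 CPM in KO epidermis (log2 fold change 0.97, SE 0.24, adjusted p = 0.00841). Top2a stood at 40.6, 45 and 40.5 CPM in WT and 66.6, 64.8 and 99.7 CPM in KO epidermis (log2 fold change 0.89, SE 0.17, adjusted p = 0.003). Epidermis KO 3 was the highest library for all 4 genes, and all 4 kept their calls without it. Cenpe, Cenpf, Bub1, Bub1b, Tpx2 and Ccnb1 rose by 0.93, 0.81, 0.74, 0.67, 0.51 and 0.48 (SE 0.28, 0.30, 0.24, 0.20, 0.18 and 0.16). In each of them the KO libraries lay above the WT libraries. Ccnb1 stood at 13.6, 12.3 and 10.6 CPM in WT and 15, 17.2 and 18 CPM in KO epidermis. The deposited TPM of Cenpf went the other way, at 1.73 ± 0.923 in WT and 1.20 ± 0.703 in KO epidermis (SD, n = 3). It was the 1 gene of the 20 called whose mean TPM did not follow its call.

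Ttk fell more than any of the 40 genes in epidermis, while the other 4 checkpoint genes rose or did not pass the test. It stood at 27.8, 26.1 and 29.9 CPM in WT and 6.65, 10.3 and 9.19 CPM in KO epidermis (log2 fold change -1.66, SE 0.18, adjusted p = 0.000171). Its lowest WT library was 26.1 CPM and its highest KO library 10.3 CPM. Mad2l1 stood at 11, 10.7 and 9.77 CPM in WT and 13.9, 10.8 and 14.9 CPM in KO epidermis (log2 fold change 0.35, SE 0.17, adjusted p = 0.112). Cdc20 stood at 25.7, 20.6 and 19.6 CPM in WT and 25.9, 23.1 and 26.1 CPM in KO epidermis (log2 fold change 0.20, SE 0.14, adjusted p = 0.271). The KO and WT libraries of these 2 overlapped.

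The remaining mitosis genes did not pass the test. Cdk1 stood at 20.2, 20.4 and 17.7 CPM in WT and 18.7, 18.2 and 22.2 CPM in KO epidermis (log2 fold change 0.033, SE 0.14, adjusted p = 0.861). Birc5 stood at 9.72, 12.6 and 13.6 CPM in WT and 11.8, 11.4 and 12.3 CPM in KO epidermis (log2 fold change -0.003, SE 0.17, adjusted p = 0.989), the smallest of the 40 in size. Aurka stood at 9.90, 7.66 and 5.45 CPM in WT and 6.57, 7.34 and 8.27 CPM in KO epidermis (log2 fold change -0.037, SE 0.24, adjusted p = 0.91). All 3 had risen in skin, and here their KO libraries overlapped the WT libraries. Ccna2 stood at 13.3, 14 and 16.7 CPM in WT and 15.6, 16.3 and 22.6 CPM in KO epidermis (log2 fold change 0.32, SE 0.18, adjusted p = 0.163). Ccnb2 stood at 14.1, 10.7 and 11 CPM in WT and 13.7, 10.4 and 15.8 CPM in KO epidermis (log2 fold change 0.17, SE 0.20, adjusted p = 0.484). Kif23 stood at 13.3, 10.0 and 11.5 CPM in WT and 12.5, 12.4 and 15.1 CPM in KO epidermis (log2 fold change 0.22, SE 0.17, adjusted p = 0.304). For each of these the KO and WT libraries overlapped. Aurkb stood at 6.81, 6.42 and 4.58 CPM in WT and 6.80, 6.78 and 10.7 CPM in KO epidermis (log2 fold change 0.46, SE 0.26, adjusted p = 0.16). Kif20a stood at 10.7, 8.28 and 5.01 CPM in WT and 10.4, 12.7 and 14.5 CPM in KO epidermis (log2 fold change 0.66, SE 0.27, adjusted p = 0.0685). Foxm1 stood at 7.25, 8.28 and 5.27 CPM in WT and 10.6, 8.06 and 14 CPM in KO epidermis (log2 fold change 0.66, SE 0.25, adjusted p = 0.0547). Foxm1 missed the threshold narrowly and passed it with RLE scaling (adjusted p = 0.0493) or no filter on low counts (adjusted p = 0.0497), or without Epidermis KO 2 (log2 fold change 0.84, adjusted p = 0.0286), and Kif20a passed it without Epidermis WT 1 (0.91, adjusted p = 0.0313).

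In skin 32 of the 36 calls were kept in all 14 alternatives run other than a minimum of 2-fold. Those of Cdc6, Mcm6, Cdc45 and Pcna were not. In epidermis those of Plk1, Kif11, Mki67, Top2a, E2f1, Cdt1, Mcm6, Tyms and Ttk were kept in all 13 run. The call of Ccne1 ended with DESeq2 (adjusted p = 0.0891), without the filter on low counts (0.0739), with the replicate block (0.0634) and with the Y-linked covariate (log2 fold change 0.38, adjusted p = 0.38). With DESeq2 the count higher was 8, and without the filter it was 9. In both the calls of Ccne1, Bub1 and Tpx2 ended. The count higher was 11 with all libraries, 5 without Epidermis WT 2, 4 without Epidermis WT 3 and 4 without Epidermis KO 3. Without Epidermis KO 3 the calls of Ccne1 (log2 fold change 0.75), Ccnb1 (0.43), Bub1 (0.60), Bub1b (0.47), Cenpe (0.63), Cenpf (0.43), Tpx2 (0.39), Gins2 (-0.39) and Pcna (-0.39) ended, at adjusted p from 0.0596 to 0.197. Without Epidermis WT 3 those of Ccne1 (0.69), Ccnb1 (0.38), Bub1 (0.76), Bub1b (0.59), Cenpe (0.77), Cenpf (0.62) and Tpx2 (0.38) ended. Without Epidermis WT 2 those of Ccne1 (0.74), Ccnb1 (0.48), Bub1 (0.76), Cenpe (0.87), Cenpf (0.88), Tpx2 (0.53), Mcm3 (-0.42), Gins2 (-0.33) and Pcna (-0.34) ended. Without Epidermis WT 1 those of Ccne1 (0.70), Bub1 (0.68), Bub1b (0.61) and Cenpf (0.90) ended. Without Epidermis KO 1 those of Ccne1 (0.55), Bub1 (0.79), Cenpf (0.92), Mcm3 (-0.54) and Gins2 (-0.38) ended. Without Epidermis KO 2 those of Ccnb1 (0.46), Tpx2 (0.52), Mcm3 (-0.39) and Pcna (-0.34) ended. Mcm7 was called lower without Epidermis KO 3 (-0.42, adjusted p = 0.0462). With the share of Y-linked reads as a covariate 5 genes were higher and 5 lower, and with the replicate number as a block 6 were higher and 10 lower.

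Other markers moved in the epidermis as well, and their part in these results was not tested. Basal keratinocyte markers, which label the layer where epidermal cells divide, summed to 31392 to 36451 CPM in WT and 12677 to 16843 CPM in KO epidermis, with 9 of 12 lower and 0 higher. Suprabasal markers summed to 50544 to 63471 and 67763 to 94426 CPM, with 4 of 10 higher and 4 lower. Hair matrix markers summed to 115 to 195 CPM in WT and 145 to 173 CPM in KO epidermis, with 1 of 8 tested higher. Ovol1 again held the most reads, 4344 over the WT and 3759 over the KO epidermis libraries. T cell markers summed to 46.3 to 58.0 and 85.1 to 162 CPM (6 of 11 tested higher). Macrophage and dendritic cell markers summed to 250.2 to 318 and 513 to 1244 CPM (7 of 9 higher). Cd74 held most of the reads of that list, 9120 over the WT and 26107 over the KO epidermis libraries. Neutrophil markers summed to 0 to 0.18 and 73.2 to 301 CPM. Among the neutrophil markers Ltf, Cxcr2, Csf3r and Retnlg held 3110, 2157, 249 and 191 reads over the 3 KO libraries. The others, Mmp8, Ngp, Ly6g, Mpo, Camp and Elane, held 39, 12, 10, 4, 1 and 0. Fibroblast markers, at 5.96 to 10.8 CPM in WT, reached 62.1 to 120.4 CPM in KO epidermis. Hair shaft and inner root sheath markers summed to 16.97 to 278 CPM in WT and 109.8 to 914 CPM in KO epidermis (2 of 14 tested higher, 0 lower), and melanocyte markers to 22.6 to 36.4 and 46.1 to 215 CPM (4 of 5 tested higher). Epidermis KO 3, the highest for the mitosis set, was the highest KO library for hair shaft and melanocyte markers and the lowest for macrophage, fibroblast and T cell markers.

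**Figure D3:**
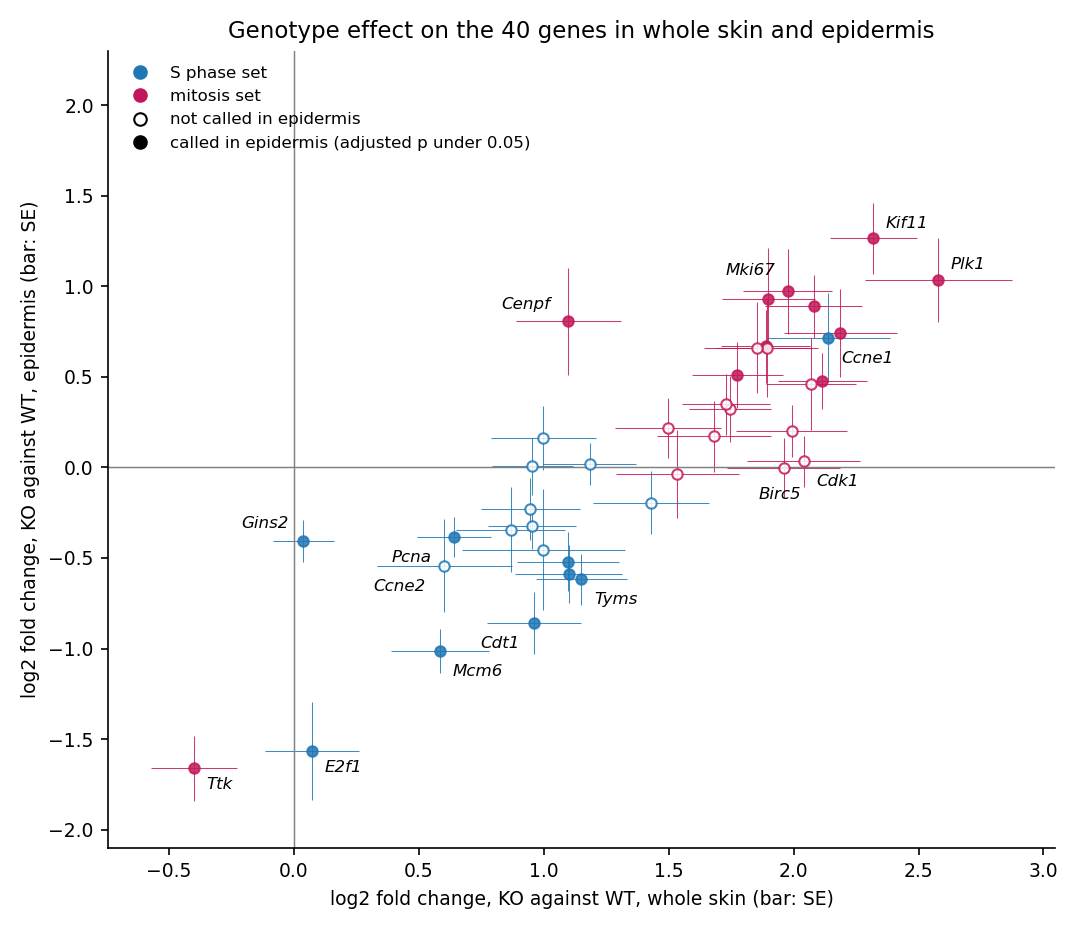
Log2 fold change of KO against WT in whole skin (horizontal) and epidermis (vertical) for each of the 40 genes, with SE bars; blue is the S phase set, magenta the mitosis set, and filled points passed the test in epidermis. Nearly all points lie to the right of 0, while mitosis genes lie mostly above and S phase genes mostly below 0 on the vertical axis, with Ttk and E2f1 at -1.66 and -1.56.

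Read across both tissues, 11 genes were higher in each, 6 were higher in skin and lower in epidermis, 19 were higher in skin and not called in epidermis, and 3 (E2f1, Gins2 and Ttk) were lower in epidermis and not called in skin. Ccne2 was called in neither. The 6 with opposite calls were Cdt1, Mcm3, Mcm6, Pcna, Tyms and Uhrf1, all of the S phase set. To ask whether the genotype effect itself differed, the difference of the effects (epidermis minus skin) was tested in 1 fit of all 12 libraries. It was below 0 for all 40 genes and passed the test for 31, where 6.36% of the 15394 genes tested were called lower and 10.1% higher. The count higher was 0, also at an unadjusted p under 0.05 and with DESeq2, which called 36 lower. The median difference was -1.27 for the S phase set and -1.25 for the mitosis set, beside 0.08 over all genes.

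The largest difference was in Cdk1, whose effect was 2.04 in skin and 0.033 in epidermis (difference -1.93, SE 0.26, adjusted p = 0.00148). Birc5, Cdt1, Cdc20 and Tyms followed, with differences of -1.89, -1.74, -1.71 and -1.69. The 9 genes not called were Ccne2, Cdc6, Mcm4, Gins2, Kif20a, Cenpe, Cenpf, Mki67 and Foxm1. Cenpf had the smallest difference, at -0.21 (SE 0.40, adjusted p = 0.741). Mki67 differed by -0.92 (SE 0.33, adjusted p = 0.0735), and its difference passed the test without Epidermis KO 3 (-1.26, adjusted p = 0.0172). Of the 31 called, 24 kept the call in all 18 alternatives other than a minimum of 2-fold. Without Skin KO 2 the calls of Ccne1 (-1.26), Mcm2 (-0.91), Cdc45 (-0.97), Rrm1 (-0.70), Plk1 (-1.15) and Kif11 (-0.84) ended, and without Epidermis KO 2 those of Mcm2 (-0.97), Cdc45 (-1.0), Rrm1 (-0.80), Plk1 (-1.37), Kif11 (-0.86) and Top2a (-1.0). Leaving out Skin WT 3 ended those of Cdc45, Rrm1, Plk1 and Kif11, Epidermis WT 1 those of Cdc45, Plk1 and Kif11, Epidermis WT 2 those of Mcm2, Cdc45, Rrm1 and Kif11, and Skin KO 3 or Epidermis KO 1 those of Cdc45 and Kif11.

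The direct comparisons of the tissues share libraries with those above and give the same values from another side. Of the 40 genes 12 were higher in WT epidermis and 0 lower with edgeR, where 17.5% of the 14596 genes tested were higher and 25.3% lower. At an unadjusted p under 0.05 the count lower was 1 (Cenpf), and with DESeq2 it was 0. The epidermal libraries all lay above the skin libraries for 19 genes and all below them for 2 (Cenpf and Kif11), where 27.5% and 29% of all genes tested showed these patterns. Tyms (log2 fold change 0.93), Cdt1 (0.88), Cdc20 (0.71), Pcna (0.71) and Birc5 (0.70) differed most. The 12 fell to 4 without Skin WT 3 and to 7 without Skin WT 2, Epidermis WT 2 or Epidermis WT 3, and without Skin WT 1 the count lower was 2. In KO mice the order was turned. There 35 genes were lower in epidermis than in skin and 0 higher, also at an unadjusted p under 0.05, where 15.9% of the 14117 genes tested were lower and 14.1% higher. Cdc6, Gins2, Pcna, Ttk and Cenpf were not called, and without Epidermis KO 2 the count lower was 23. Ccne2 (-1.51), Ccnb1 (-1.38) and Plk1 (-1.37) differed most.

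Per length, in the deposited TPM, Pcna was the most abundant of the 40 transcripts in all 4 groups, at 85.8 ± 14.7 TPM in WT skin, 121 ± 16.9 in KO skin, 98.8 ± 14.4 in WT epidermis and 75.4 ± 11 in KO epidermis (SD, n = 3). In WT skin Mcm6 (29.1 ± 7.48 TPM) and Tyms (24.2 ± 6.35 TPM) came next. In KO skin Cdk1 (73.8 ± 22.3 TPM) and Top2a (64.2 ± 17.9 TPM) came next instead. Within each of these pairs the ranges of mean ± SD overlapped. The least abundant transcript was that of Bub1 in both WT groups (1.13 ± 0.227 and 0.750 ± 0.0656 TPM) and that of Cdc6 in both KO groups (2.55 ± 0.557 and 0.823 ± 0.501 TPM).

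The other genes of the cycle are set beside the shares of all genes tested, 22.2% higher and 23.3% lower in KO skin and 26.2% higher and 25.3% lower in KO epidermis. Of 46 other DNA replication genes 31 were higher and 0 lower in skin, and 4 were higher and 15 lower in epidermis, with medians of 0.93 and -0.17. Clspn, the checkpoint adaptor of stalled forks, stood at 2.31, 2.40 and 2.31 CPM in WT and 9.73, 16.2 and 12.3 CPM in KO skin (log2 fold change 2.53, adjusted p = 0.000438). Dbf4, the activator of the Cdc7 kinase, rose in skin by 2.13 and in epidermis by 0.87 (adjusted p = 0.000402 and 0.00319). Orc1 of the origin recognition complex and the nuclease Dna2 rose in skin by 2.47 and 1.94 and were not called in epidermis. In epidermis Dut, which clears dUTP, fell from 30.7, 32.4 and 33.4 CPM to 10.4, 8.93 and 14.6 CPM (log2 fold change -1.49, adjusted p = 0.000327). Prim1, the primase, fell by 0.89 on the log2 scale (adjusted p = 0.00058). Against this direction, Dnmt1, the maintenance DNA methyltransferase, stood at 59.6, 60.9 and 38.5 CPM in WT and 99, 95.8 and 102 CPM in KO epidermis (log2 fold change 0.91, adjusted p = 0.00261), and Orc2 rose by 0.51.

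Of 44 other mitosis genes 40 were higher and 0 lower in KO skin, and 9 were higher and 1 lower in KO epidermis, with medians of 1.66 and 0.20. The share higher in epidermis was below the 26.2% of all genes, so the count shows no rise of this list there. The condensin genes Ncapg and Ncapd2 rose in skin by 2.06 and 1.75 and in epidermis by 0.60 and 0.75. Smc2, another condensin subunit, stood at 6.81, 10.0 and 6.92 CPM in WT and 13.8, 15.3 and 21 CPM in KO epidermis (log2 fold change 1.09, adjusted p = 0.00391). The spindle proteins Kif15 and Hmmr rose in skin by 2.09 and 1.98, and Hmmr in epidermis by 0.83. Lmnb1, of the nuclear lamina, rose in skin by 1.28 and in epidermis by 0.57. The 1 gene lower in epidermis was Cdc25b, the phosphatase that activates Cdk1 (-0.37, adjusted p = 0.0417).

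**Figure D4:**
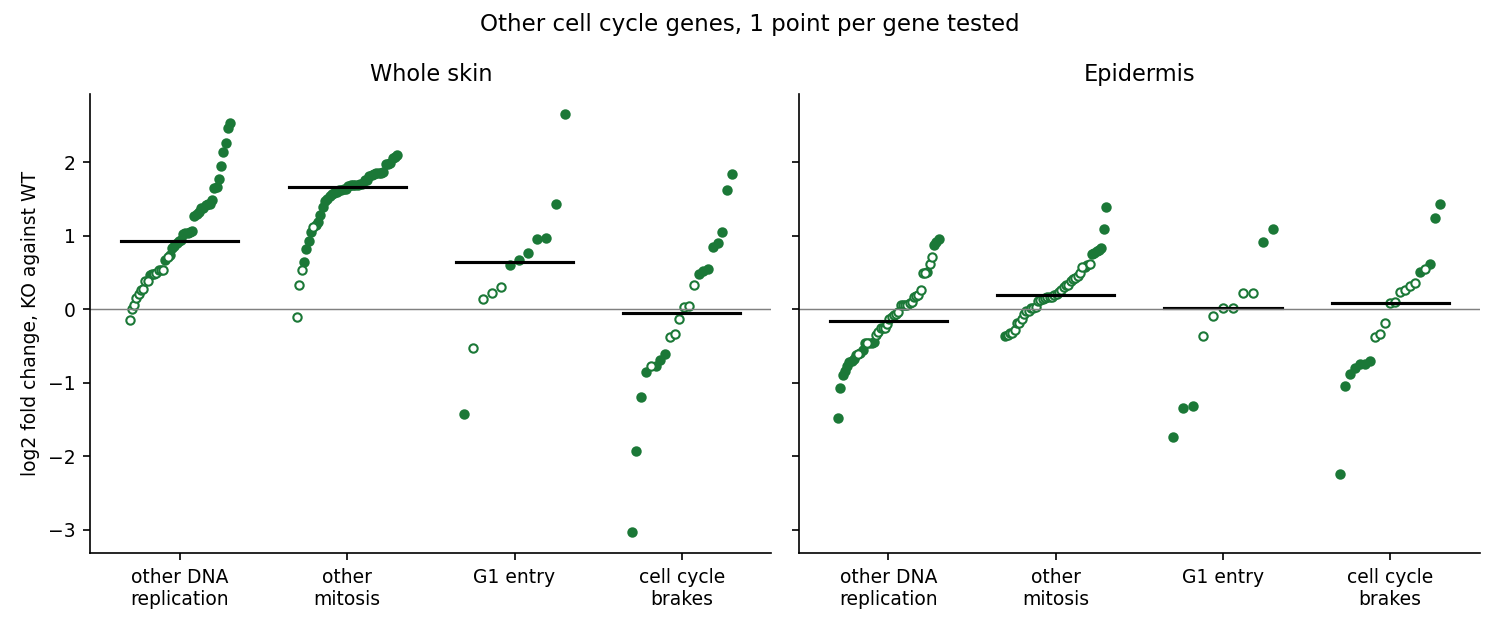
Log2 fold change of KO against WT for each tested gene of 4 other cell cycle lists in whole skin (left) and epidermis (right); filled points passed the test and bars are medians. In skin the DNA replication and mitosis lists lie mostly above 0 (medians 0.93 and 1.66), in epidermis around 0 (medians -0.17 and 0.20), and the G1 entry and brake lists spread to both sides in both tissues.

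G1 entry genes admit cells to the cycle. Of 12 such genes 7 were higher and 1 lower in KO skin, where 22.2% and 23.3% of all genes were, and 2 of 11 tested were higher and 3 lower in KO epidermis, where 26.2% and 25.3% of all genes were. Myc stood at 41.1, 42.7 and 43.4 CPM in WT and 73.3, 77.2 and 82.3 CPM in KO skin. In epidermis it stood at 147, 214 and 179.8 CPM in WT and 66.1, 73.1 and 72.1 CPM in KO. It thus rose in skin (0.96, adjusted p = 0.000718) and fell in epidermis (-1.34, adjusted p = 0.0002), a difference of -2.23 (SE 0.18, adjusted p = 0.000207). Cyclin D2 (Ccnd2) dropped by 1.42 on the log2 scale in skin and dropped by 1.74 in epidermis. Skp2, which targets the inhibitor Cdkn1b for destruction, rose in both, by 1.43 and 0.91, and so did E2f3, by 0.95 and 1.09. Cdk4 and Mycn rose in skin by 0.67 and 2.65, Mycn from a low level. Mycn stood at 0.841, 0.262 and 0.608 CPM in WT and 3.76, 4.29 and 1.90 CPM in KO skin. In epidermis Cdk4 was not called.

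Of 23 brakes on the cycle 8 of 22 tested were higher and 7 lower in KO skin, and 4 of 21 were higher and 7 lower in KO epidermis. Of all genes tested 22.2% were higher and 23.3% lower in skin, and 26.2% and 25.3% in epidermis, and nothing is read from the list as a whole. E2f8, a repressor of the late E2F programme that is itself an E2F target, rose from 3.43, 4.97 and 4.44 CPM to 15.3, 14.2 and 13.9 CPM in skin and from 3.89, 4.97 and 2.94 CPM to 10.1, 9.57 and 11.9 CPM in epidermis (log2 fold changes 1.84 and 1.43). E2f4, of the repressive complexes, rose by 0.89 and 0.50. Trp53 rose by 0.84 in skin. The inhibitor Cdkn1c stood at 20.2, 12.2 and 10.6 CPM in WT and 2.49, 0.858 and 1.59 CPM in KO skin (-3.04, adjusted p = 0.00181) and Cdkn2c was lower as well (-0.85). Fbxw7, which marks cyclin E for destruction, was lower in both tissues (-0.77 and -0.74). Btg2, an antiproliferative gene, stood at 700.5, 1210.0 and 1022 CPM in WT and 159, 259 and 193 CPM in KO epidermis (-2.25, adjusted p = 0.00019). Its levels in skin were below those of both epidermal groups, at 49.4, 64.8 and 54.4 CPM in WT. In KO skin Btg2 was slightly higher, at 78.8, 69.3 and 72.1 CPM (0.48, adjusted p = 0.0238). The pocket protein gene Rbl2 rose in epidermis (0.62).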

How the data were processed

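RNA-seq gene tables of 12 libraries (WT and KO, whole skin and epidermis, 3 each) were used. Per the labels' protocols, total RNA was made into libraries by a stranded mRNA kit. Per the submitters' processing notes, reads were processed with bcl2fastq 2.17, STAR 2.5.1 and RSEM on mm10. For the annotation release and the strand setting, nothing was given in the sources used here. Per the file headers, the authors deposited the expected count and the TPM of each gene. Expected counts are estimates (83 of 480 values of the 40 genes were not whole) and were rounded to whole numbers. IDs were matched to GENCODE M21 (GRCm38), giving a symbol to 47224 of 47643 after dropping the version. IDs without a symbol held at most 0.0612% of the counts of a library.

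Each comparison was fitted over the whole table in edgeR 4.0.16 (R 4.3.3) with TMM scaling, the filterByExpr filter and the quasi-likelihood F test. P-values were adjusted by Benjamini-Hochberg over all genes tested, and called means an adjusted p under 0.05. All p-values of the text come from these two-sided edgeR tests unless DESeq2 is named. The SE is the log2 fold change divided by the root of F. Levels are CPM scaled by 1 TMM over all 12 libraries, and between genes only the deposited TPM was compared. A word search on both strands of RefSeq promoter windows (GRCm38.p6) gave the motif matches.

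The 40 genes, the other lists and the naming rule were chosen with earlier results of these data known. The rule gave values in every library for Mki67, Top2a, Ccnb1, Cdk1, Mcm2 to Mcm7, Pcna, Rrm2, Ccne1 and E2f1. In each genotype comparison it added the 3 largest and 3 smallest changes and every gene that was lower or not called. Of each other pathway list it took up to 4 genes by adjusted p in skin, up to 2 in epidermis and up to 3 that went against the list. The promoters were named in the rule too, except that Ccna2 had no window. Alternatives were RLE scaling, DESeq2 1.42.0, no filter on low counts, a minimum of 2-fold, a replicate block, TMM without hair, muscle and keratin genes, the share of Y-linked reads as a covariate, 1 fit of all 12 libraries and leaving out libraries.

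The labels number the libraries 1 to 3 in each group, without saying what a number shares. In skin the deviations of same-numbered WT and KO libraries from their group means correlated over genes at 0.339, 0.359 and 0.206. What lies behind these correlations is not known. The reported tests were fitted without pairs, and the replicate block was run as an alternative. B cell markers (0 of 5 tested in both genotype comparisons) and melanocyte markers (5 of 5 tested higher in KO skin and 4 of 5 in KO epidermis) were counted too.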

Additional observations from a re-analysis of the deposited data

Results flagged for a closer look

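The genotype effect differed between the tissues for 31 of the 40 genes, by a direct test of the difference (epidermis minus skin) in 1 edgeR fit of all 12 libraries with Benjamini-Hochberg adjustment. All 31 differences were negative, and values below are on the log2 scale. For growth and S phase cyclins the difference was -1.34 in Ccne1. For E2F factor the difference was -1.56 in E2f1. For origin licensing the difference was -1.74 in Cdt1. For MCM helicase the difference was -1.10 in Mcm2, -1.54 in Mcm3, -1.54 in Mcm5, -1.52 in Mcm6 and -1.20 in Mcm7. For helicase activation and clamp the difference was -1.13 in Cdc45 and -0.95 in Pcna. For deoxynucleotide synthesis the difference was -0.87 in Rrm1, -1.08 in Rrm2 and -1.69 in Tyms. For DNA methylation maintenance the difference was -1.61 in Uhrf1. For mitotic cyclins and Cdk1 the difference was -1.34 in Ccna2, -1.56 in Ccnb1, -1.43 in Ccnb2 and -1.93 in Cdk1. For mitotic kinases and passenger complex the difference was -1.47 in Plk1, -1.50 in Aurka, -1.53 in Aurkb and -1.89 in Birc5. For spindle checkpoint and APC the difference was -1.37 in Bub1, -1.14 in Bub1b, -1.30 in Mad2l1, -1.19 in Ttk and -1.71 in Cdc20. For motors and spindle the difference was -0.98 in Kif11, -1.20 in Kif23 and -1.19 in Tpx2. For chromosome proteins the difference was -1.11 in Top2a. No explanation of these differences was tested.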

How the results depend on the processing

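A minimum of 2-fold left 20 genes higher and 2022 of all genes called in skin, 0 higher, 1 lower and 1589 in epidermis, 0 higher and 2062 between the WT tissues, 0 lower and 478 between the KO tissues, and 3 lower and 469 for the difference. The fit of all 12 libraries called 1 gene lower in skin, Ttk. With Skin KO 2 as the single KO library, 2658 of all genes were called in skin. The Y-linked share as covariate gave 5 higher, 5 lower and 4540 in epidermis. Pairing by replicate number changed no call among the 40 genes in skin (36 higher, 0 lower with the replicate block). In epidermis the libraries share only a number (correlations of 0.0745, 0.14 and -0.055, with Epidermis KO 1 closer to WT 3 than to WT 1), and the block gave 6 higher and 10 lower. Between the KO tissues it gave 2805 of all genes. Leaving out 1 library gave 33 to 36 higher, 0 to 0 lower and 4944 to 7770 of all genes in skin, 4 to 10, 6 to 9 and 5856 to 6573 in epidermis, 4 to 11, 0 to 2 and 4198 to 7830 between the WT tissues, and 0 to 0, 23 to 36 and 2328 to 3561 between the KO tissues. For the difference it gave 0 to 0, 25 to 35 and 1393 (without Skin KO 2) to 3940 (without Skin WT 1), with 1436, 1581 and 1412 without Skin WT 3, Epidermis WT 3 and Epidermis KO 2. The 2328 between the KO tissues was without Skin KO 3. Other counts stayed within 1.5 times of those reported. The cause was not tested. The values that changed sign were uncalled and near 0. Leaving out 1 library they ranged in skin from -0.067 to 0.19 for E2f1 and -0.019 to 0.13 for Gins2. Leaving out 1 library they ranged in epidermis from -0.24 to 0.17 for Aurka, -0.14 to 0.083 for Birc5, -0.061 to 0.088 for Cdk1, -0.12 to 0.18 for Rrm1 and -0.023 to 0.044 for Rrm2. Leaving out 1 library they ranged between the WT tissues from -0.029 to 0.26 for Bub1, -0.074 to 0.087 for Bub1b, -0.14 to 0.037 for Ccna2, -0.080 to 0.42 for Kif20a, -0.25 to 0.077 for Mcm4, -0.20 to 0.11 for Mki67, -0.081 to 0.25 for Plk1 and -0.17 to 0.048 for Tpx2. In the fit of all 12 libraries E2f1 and Gins2 were -0.021 and -0.053 in skin and Rrm1 -0.0068 in epidermis. In epidermis Rrm1 was also -0.0067 without the filter and -0.13 with the Y-linked covariate, Aurka 0.10 with that covariate, and Birc5 0.0042 with RLE scaling, 0.0062 with DESeq2 and 0.0068 with the replicate block. The lowest of the 480 values was 20 counts, and with 3 libraries a group the number of libraries limits the precision. Cell composition and genotype move together in both tissues and cannot be told apart. In epidermis this holds for sex as well. In skin Y-linked reads were found in Skin KO 1 and Skin KO 3 and in no WT library.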
